A study of Mus musculus with 23 samples.

Results

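The livers of mice given furan at 8 mg/kg were compared with those of mice given corn oil alone. The comparison holds 10 of the 23 arrays of the study: the 5 arrays titled 8 mg/kg bw furan and the 5 titled Control. All animals were female B6C3F1 mice, bought at 5 to 6 weeks of age and acclimatised for at least a week. The treated animals received furan dissolved in corn oil by gavage for 21 days, and the controls received the oil alone on the same schedule. Whole liver was taken 4 h after the last dose, so each array reads the RNA of all liver cells together. Liver RNA was labelled with Cy5 and hybridised against a Cy3-labelled universal mouse reference RNA on 2-colour Agilent SurePrint G3 8x60K arrays. In the fit the other 13 arrays, from animals at 1, 2 and 4 mg/kg, served only to estimate the spread between animals. They also counted in the filter on dim probes and in the choice of each gene's brightest probe. The study concerns cell death and regrowth in the exposed liver. The submitters describe the samples as biological replicates.

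Furan is a volatile product of heated food, which hepatocytes oxidise, mainly through Cyp2e1, to the reactive dialdehyde cis-2-butene-1,4-dial. The dialdehyde binds thiols and amines of glutathione and proteins. Hepatocytes answer reactive chemicals through sensors with separate sets of target genes: p53 for damaged DNA, NRF2 for electrophiles and HSF1 for unfolded proteins. Hepatocytes that are lost can be replaced by division of those that remain, which calls for new ribosomes, nucleotides and spindle proteins.

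Values below are log2 ratios of liver to reference RNA after loess, minus the mean of the 5 controls, and are listed in the order of the replicate numbers 1 to 5. A difference is the log2 difference between the group means ± its standard error from the limma fit. A gene is said to have risen or fallen where the limma p, adjusted by Benjamini-Hochberg over all 19899 genes tested, was under 0.05. Levels are not compared between genes, since each probe has its own brightness. The arrays each measured 22010 to 30114 probes well above background, none was saturated in Cy5, and genes had a median residual SD of 0.236.

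The tissue label was checked on 10 defining hepatocyte markers, among them Alb, Ttr, Apoa1 and Hnf4a. All were well above background on all 10 arrays and none passed the test, with differences from -0.34 (Cyp2e1, limma adjusted p = 0.536) to 0.14 (Hnf4a). With slide as a fixed block Cyp2e1 passed, at -0.294 (limma adjusted p = 0.00998), as 1 of the 10; over the 25 alternatives it ran from -0.539 to -0.0729 and passed in that 1. The mean score of the 10 was higher on slide 3 in both groups, at 0.66 in control replicate 2 and 0.75 in 8 mg/kg replicate 3, against -0.41 to 0.0018 on the other 8 arrays. The 10 arrays lay on 5 slides, and within the 4 slides that held both groups the treated minus control score ran from -0.13 to 0.16. In 8 mg/kg replicate 5 the pancreatic enzyme transcripts scored 2.38, against -0.30 to 0.50 on the other 9 arrays. No member of 9 marker lists (pancreas, erythrocytes, cholangiocytes, stellate cells, lymphocytes in 2 lists, neutrophils, Kupffer cells and hepatocytes; 87 members tested) passed the limma test, and 1 had an unadjusted p under 0.05. The adipose tissue marker list had 1 rise (Cidec) and 1 fall (Adrb3) in 4 members, where 4.25% of all genes rose and 3.76% fell. Its rise was lost without any of control replicates 2 to 4 or 8 mg/kg replicates 3 and 4. The sinusoidal endothelial list had 3 falls in 18, described below. In whole liver, fewer cells of a type and less RNA per cell cannot be told apart.

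At 8 mg/kg, 1593 of 19899 genes (8.01%) changed: 845 rose (4.25% of those tested) and 748 fell (3.76%). Most differences were small. Changes of at least 1.5-fold numbered 529 (2.66% of genes tested), 324 rises and 205 falls; 131 rises and 43 falls were at least 2-fold. The 5 treated animals lay wholly above or below the 5 controls in 8.76% of all genes. The 5 treated animals had medians over the 845 rises of 0.467, 0.472, 0.586, 0.453 and 0.448 and over the 748 falls of -0.417, -0.429, -0.454, -0.474 and -0.436. The genes were called from these same arrays, which favours genes in which the animals agree, so the medians are descriptions only. Of the 1593 genes, 1530 had the same sign within all 4 slides, which the calling from the same arrays also favours. The share over all genes is not given here. The balance of rises and falls depended on the scaling of the arrays. It was 845 to 748 with loess (53% rises), 700 to 309 with normexp background correction (69.4%), 1130 to 410 with median centring in place of loess (73.4%) and 580 to 351 in the authors' deposited value table (62.3%). Leaving out arrays rich in pancreatic RNA gave 682 rises and 558 falls, and leaving out slide 3 gave 578 and 553. The median difference of all genes tested stayed between -0.027 and 0.036 under the 4 scalings.

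**Figure D1:**
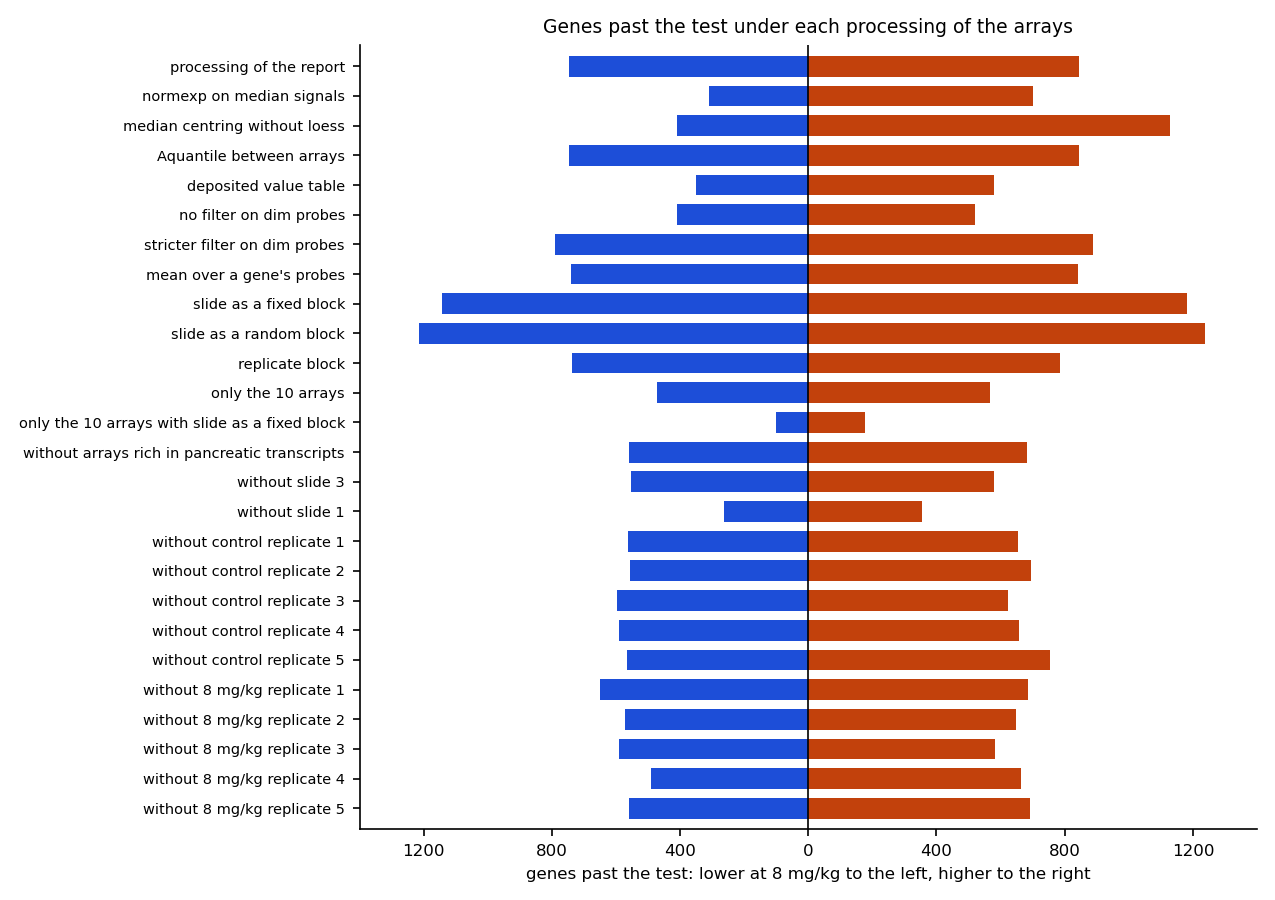
Genes past the test (x axis, number of genes) that were lower (left, blue) or higher (right, orange) at 8 mg/kg under the processing used here and 25 alternatives (rows). The processing of the report gave 845 higher and 748 lower; the fit of the 10 arrays alone with slide as a block gave the fewest calls, 176 and 100.

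The 51 pathway lists show where the changes lay. Shares of rises stood furthest above the 4.25% of all genes for heat shock genes (14 of 25 members tested), p53 targets (19 of 36), NRF2 targets (16 of 40) and ribosome biogenesis factors (30 of 89). Tubulins and other microtubule genes (8 of 33), glutathione transferases (5 of 23) and mitosis genes (10 of 49) followed. Shares of falls stood furthest above the 3.76% of all genes for antigen presentation (8 of 33), cell death mediators (7 of 51), autophagy and lysosome (9 of 69) and amino acid breakdown (8 of 65). Cell death mediators also had 6 rises (11.8%). Several lists of the liver's specialised work had shares near or under those of all genes (4.25% rises and 3.76% falls). Bile acid synthesis and transport had no rise or fall in 31 members (limma, 1 had an unadjusted p under 0.05). The ileal bile acid carrier gene Slc10a2, which rose, is not in that list and is counted among the solute carriers below. Cytochrome P450s had 1 rise (1.54%) and 2 falls (3.08%) in 65. Acute phase proteins had 1 fall in 39 (2.56%), complement and coagulation 2 in 61 (3.28%) and lipoprotein genes 1 in 38 (2.63%). Scores of such lists varied widely among controls, from -0.24 to 0.52 for P450s and from -0.28 to 0.53 for complement and coagulation. The counts thus do not show that these genes were unchanged. With 1 animal left out the P450 counts were 0 or 1 rise and 1 or 2 falls, acute phase proteins had 0 or 1 fall and complement and coagulation 0 to 2.

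**Figure D2:**
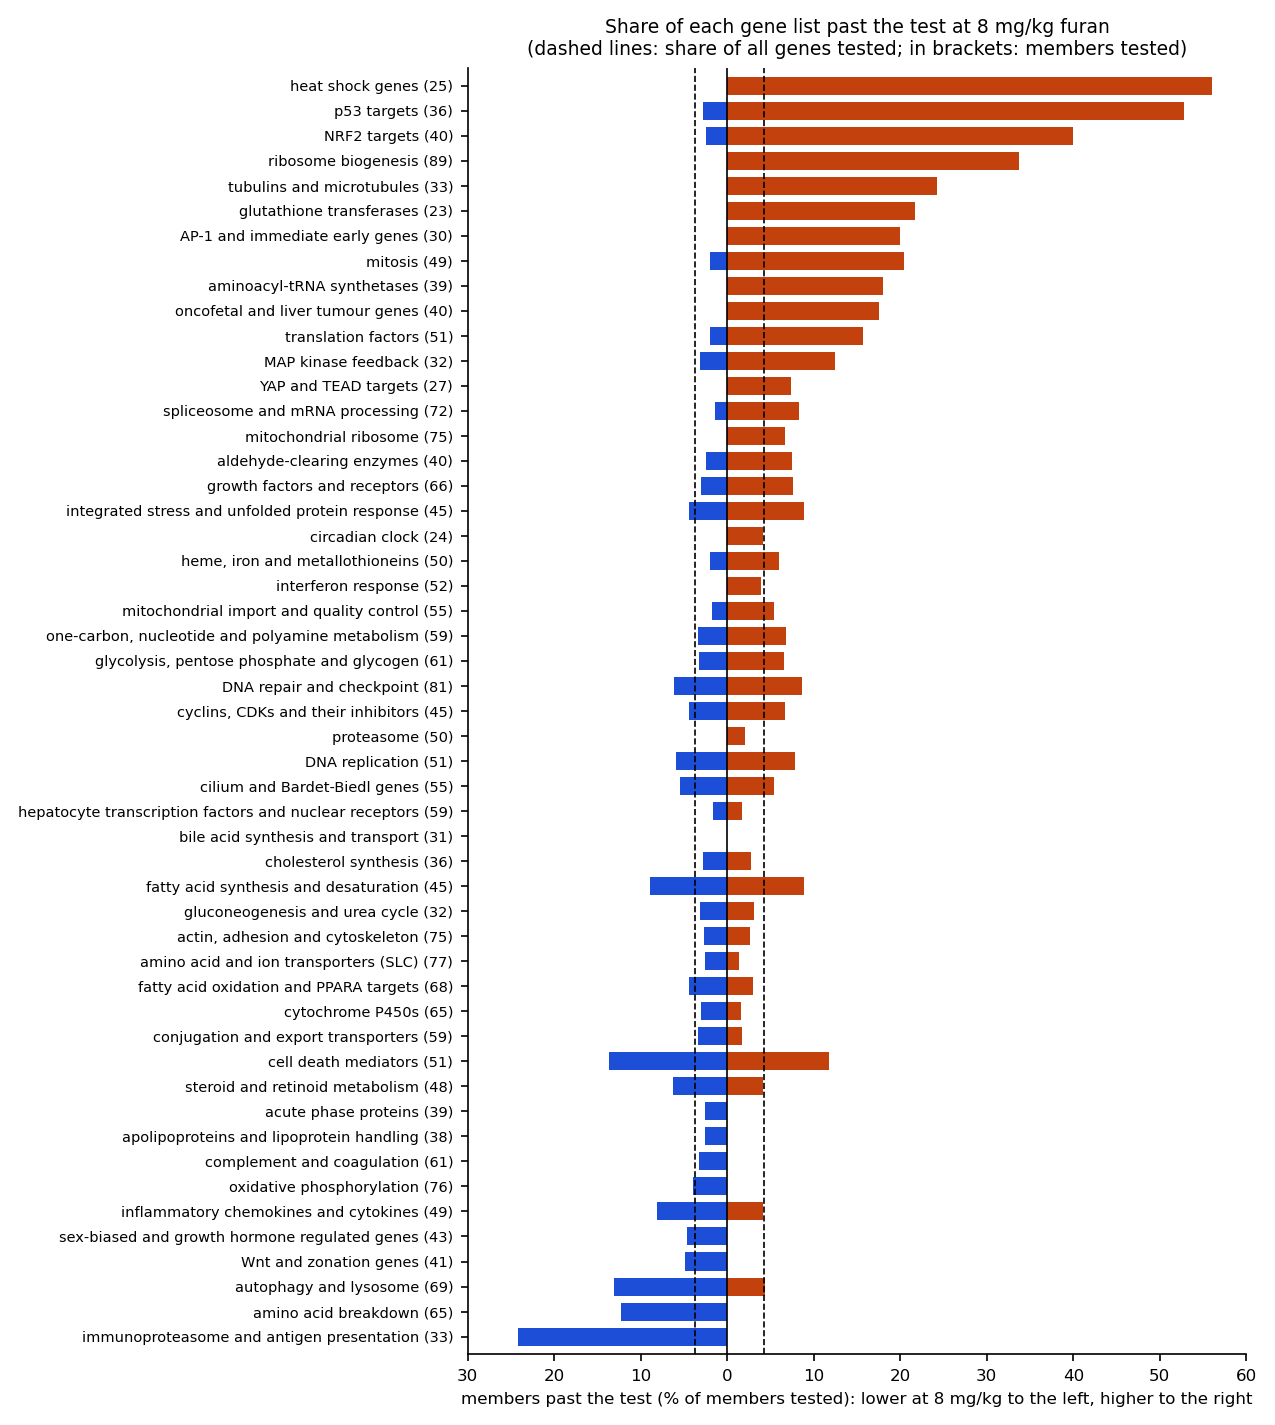
Share of the tested members of each of 51 pathway lists (rows, number tested in brackets) that were lower (blue, left) or higher (orange, right) at 8 mg/kg, in percent (x axis). Dashed lines mark the shares of all 19899 genes, 4.25% higher and 3.76% lower; heat shock genes reach 56% higher and antigen presentation 24.2% lower.

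Among the p53 targets, Cdkn1a, the gene of the cell cycle brake p21, read 0.59, 0.095, 0.10, -0.61 and -0.18 in controls and 3.06, 2.71, 2.68, 2.74 and 2.73 in treated animals. The treated animals lay within a narrow band, far from every control, and the difference was 2.79 ± 0.16 (limma adjusted p = 1.98e-09). Ddias, an inhibitor of apoptosis after DNA damage, was well above background on 1 of 5 control and 5 of 5 treated arrays; its difference of 3.02 ± 0.31 thus rests on dim controls and ran from 1.38 to 3.23 over the alternatives, all of which it passed. Ddit4l, which restrains mTOR signalling, was as dim in controls (1 of 5 arrays) and differed by 2.26 ± 0.30, and Zmat3, a p53-induced zinc finger gene, by 1.39 ± 0.14. Perp, a desmosomal p53 target, was the list's only fall (it fell by 0.33 ± 0.07). Trp53 itself differed by 0.062 ± 0.12 (limma adjusted p = 0.852). Leaving out any 1 of the 10 animals left 19 members higher.

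NRF2 targets and glutathione transferases, which attach glutathione to electrophiles, were led by the alpha class. Gsta1 read 1.12, -1.77, -0.88, 0.38 and 1.15 in controls and 4.03, 3.33, 4.83, 4.48 and 3.65 in treated animals. Controls were widely spread, yet the groups did not overlap, and the difference was 4.06 ± 0.59 (16.7-fold, limma adjusted p = 0.000228). Gm10639, an alpha class relative, differed by 3.07 ± 0.40 and Gsta2 by 1.97 ± 0.40; probes of these near-identical genes can share transcripts, so the members cannot be told apart with confidence. Gsta4, of the same class, differed by -0.23 ± 0.09 and did not pass. In the other classes Gstm1 rose by 0.61 ± 0.15, Gstp2 by 0.56 ± 0.15 and Gstp1 by 0.52 ± 0.15, and 3 transferases in place of 5 passed on leaving out control replicate 3, control replicate 5 or the 8 mg/kg replicate 3. Of 40 aldehyde-clearing enzymes 3 rose (7.5%, against 4.25% of all genes): the carbonyl reductases Cbr3 (1.79 ± 0.28) and Cbr1 (0.66 ± 0.12) and the aldehyde reductase Akr1a1 (0.30 ± 0.08). Cbr3 varied among the treated animals, at 1.94, 0.71, 2.99, 1.97 and 1.32, against 0.064, -0.037, -0.35, 0.29 and 0.032 in controls. Ptgr2, a prostaglandin reductase, fell by 0.31 ± 0.06.

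Heat shock genes encode chaperones that hold or refold proteins. Hsp90aa1 rose by 0.94 ± 0.16, Hspb1 by 0.92 ± 0.15 and the constitutive Hspa8 by 0.56 ± 0.11. The inducible Hspa1a read 1.47, 0.65, 0.63, 1.26 and 0.45 in treated animals against -0.35, 0.30, 0.27, -0.21 and -0.015 in controls, where it was well above background on 2 of 5 arrays, and differed by 0.89 ± 0.26. Every treated animal was above every control for 14 of the 25 members, a separation seen in 4.44% of all genes. The 14 rises were 11 at fewest with 1 animal left out, and 1 in the 10 arrays alone with slide as a block. The promoters of 2 of 11 risers with an entry held the heat shock element searched (GAA units in alternating orientation, either strand), against 0.514% of the genes tested. They are shown here from RefSeq (GRCm38.p6) with the element in capitals: Hsph1, an HSP70 nucleotide exchange factor, on the minus strand at chr5:149636279-149636308, and Chordc1, an HSP90 co-chaperone, on the plus strand at chr9:18292255-18292284.
Hsph1: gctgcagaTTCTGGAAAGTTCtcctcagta
Chordc1: tgcaaccgGAACGTTCGGGAAaattcctga
Hsph1 itself rose by 0.50 ± 0.12 and Chordc1 by 0.56 ± 0.09. Hspa4l, an HSP110 relative, rose by 0.72 ± 0.13, whereas Dnajb1, an HSP40 co-chaperone, differed by 0.28 ± 0.11 (limma adjusted p = 0.149).

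Ribosome biogenesis factors formed the largest group of rises. They transcribe, modify, cut and fold ribosomal RNA and assemble it with ribosomal proteins. Of 89 members tested 30 rose (33.7%, against 4.25% of all genes), none fell, and 44 were higher and 1 lower at an unadjusted p under 0.05. The median over the 89 was 0.17, against -0.027 over all genes, and all 5 treated animals (list score 0.13 to 0.25) were above all 5 controls (-0.049 to 0.082). Within slides the score was 0.15 to 0.23 higher.

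Rrp12, which is needed for export of both ribosomal subunits, had the largest difference of the group. It read 0.38, 0.16, -0.31, -0.07 and -0.16 in controls and 0.99, 0.77, 0.99, 1.06 and 0.87 in treated animals, 0.94 ± 0.17 higher (1.91-fold, limma adjusted p = 0.00149). Nop58, a core protein of the box C/D particles that guide rRNA methylation, read -0.19, 0.12, 0.034, -0.21 and 0.25 in controls against 0.78, 0.91, 0.89, 0.77 and 0.68 in treated animals, a difference of 0.80 ± 0.11 (limma adjusted p = 0.000122). In both genes the lowest treated animal lay above the highest control. The RNA helicase gene Ddx21 read 0.026, 0.13, -0.27, 0.065 and 0.053 in controls and 0.80, 0.66, 0.87, 0.39 and 0.70 in treated animals, so replicate 4 was the weakest, and rose by 0.68 ± 0.12. Rrp1b, a nucleolar protein gene, rose by 0.64 ± 0.17, the large subunit assembly factor Wdr12 by 0.61 ± 0.12, the nuclease gene Nob1, which makes the last cut at the 3′ end of 18S rRNA, by 0.61 ± 0.11, the small subunit factor Tsr1 by 0.56 ± 0.11 and the GTPase gene Gtpbp4 by 0.46 ± 0.12.

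Some genes named here and below lie beyond the naming rule and were picked after their values were seen. Of these, the polymerase I subunit genes Polr1e and Polr1a rose by 0.44 ± 0.10 and 0.40 ± 0.12, and the box C/D protein gene Nop56 by 0.36 ± 0.10. Other core factors did not pass. The methyltransferase gene Fbl differed by 0.059 ± 0.11, nucleolin (Ncl) by 0.21 ± 0.11, nucleophosmin (Npm1) by -0.092 ± 0.09 and the polymerase I factor Ubtf by -0.21 ± 0.19, with limma adjusted p from 0.268 to 0.847. The second probe of Ncl differed by 0.986, and Ncl passed with the mean over both probes (0.597) and with slide as a fixed block (0.22, limma adjusted p = 0.0231).

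**Figure D3:**
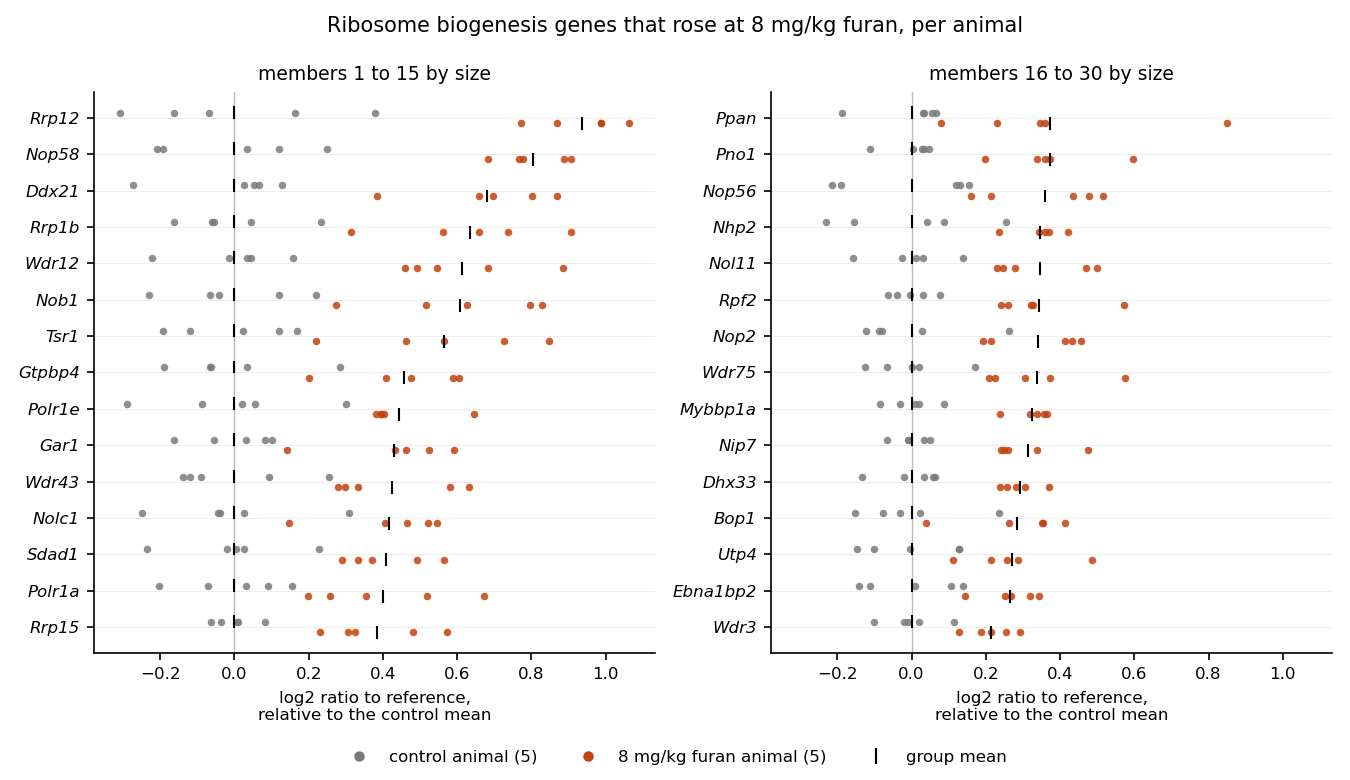
Log2 ratio relative to the control mean (x axis) of each control animal (grey) and each 8 mg/kg animal (orange) for the 30 ribosome biogenesis genes that rose, in order of size; black ticks are group means. All treated animals were above all controls for 27 of the 89 members of the list tested, against 4.44% of all genes. Means of the genes shown run from 0.94 (Rrp12) to 0.22 (Wdr3).

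The count of 30 rested on several animals and settings. It was 17 without control replicate 2, 18 without control replicate 4, and 19, 17 and 16 without 8 mg/kg replicates 1, 2 and 4. It was 17 without slide 3, 11 without slide 1, 15 with no filter on dim probes, 17 in the deposited value table, 19 in the 10 arrays alone and 3 in these 10 with slide as a block, against 33 with slide as a block over all arrays. The median stayed between 0.155 and 0.218 in all 25 alternatives, and the genes printed below with their promoters were chosen for the motif.

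The proximal promoters of these genes were searched for short motifs. Promoters were the 250 bases before to 50 after each annotated start (RefSeq, GRCm38.p6), a gene counted if any of its starts had the motif on either strand, and 28 of the 30 risers had an entry. The E-box CACGTG, the site bound by Myc and related factors, lay in 10 of 28 (35.7%), in 8 of the 49 members with an entry that did not pass (16.3%) and in 11.3% of the genes tested. The ETS motif CCGGAAGT lay in 11 of 28 (39.3%) and in 15 of 49 (30.6%), against 8.38% of the genes tested. No test was made of these shares, and 13 motifs were searched. Windows of 30 bases around the E-box (capitals) are shown for 4 of the 10 risers that held it. They are Tsr1 (plus strand, chr11:74898092-74898121, 24 bases after the start), Wdr43 (plus strand, chr17:71616220-71616249, 17 bases after), Nol11 (minus strand, chr11:107189407-107189436, 43 bases before) and Nop2 (plus strand, chr6:125131811-125131840, 60 bases before).
Tsr1: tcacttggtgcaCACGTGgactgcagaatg
Wdr43: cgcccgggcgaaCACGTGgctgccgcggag
Nol11: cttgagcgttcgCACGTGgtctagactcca
Nop2: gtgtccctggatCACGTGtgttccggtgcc
Wdr43 and Nol11, factors of the small subunit processome, rose by 0.42 ± 0.09 and 0.35 ± 0.08, and Nop2, an rRNA methyltransferase gene, by 0.34 ± 0.09. Myc was one of 6 risers among 30 AP-1 and immediate early genes (20%, against 4.25% of all genes). It read -0.45, -0.41, -0.29, 0.62 and 0.53 in controls and 1.60, 1.15, 2.33, 1.20 and 0.90 in treated animals, 1.43 ± 0.40 higher (limma adjusted p = 0.0303). Its groups did not overlap, but it passed in 14 of 25 alternatives and was lost without control replicates 1, 2 and 3 and without 8 mg/kg replicates 1 and 3.

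Other parts of the translation machinery had rises too. Of 39 aminoacyl-tRNA synthetase genes, whose products load tRNAs, 7 rose and none fell (limma; 2 members were lower at an unadjusted p under 0.05), among them Tars (0.46 ± 0.11), the mitochondrial Yars2 (0.43 ± 0.07), Cars (0.42 ± 0.11) and Gars (0.41 ± 0.11). Translation factors had 8 rises and 1 fall in 51. The release factor gene Etf1 rose by 0.56 ± 0.15 and Eif4g2 by 0.39 ± 0.11, and the helicase gene Eif4a2 fell by 0.57 ± 0.12. Eif4a2 read -0.42, -0.47, -0.61, -0.70 and -0.67 in treated animals against -0.17, 0.0012, 0.014, 0.019 and 0.13 in controls, a full separation. Among the risers Eif2s1, Eif2s2 and Gspt1 had a second probe that differed the other way (-0.194, -0.102 and -0.585), so their direction depends on the probe. Spliceosome genes had 6 rises and 1 fall in 72 and mitochondrial ribosomal proteins 5 rises in 75, against 4.25% of all genes that rose. Without slide 1, 1 synthetase and 1 translation factor were higher. Without control replicate 5, 4 synthetases were higher. The 6 spliceosome rises were 3 without control replicate 3 or 8 mg/kg replicate 2, and the 5 mitochondrial ribosomal rises were 2 without control replicate 4 or 8 mg/kg replicate 3. Translation factors that rose numbered 5 without control replicate 1 or 2, 4 without 8 mg/kg replicate 3 and 4 with the mean over each gene's probes.

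Enzymes that supply growth with nucleotides and polyamines rose in 4 and fell in 2 of 59 tested (6.78% and 3.39%, against 4.25% and 3.76% of all genes), with 2 rises without control replicate 1 or 8 mg/kg replicate 3. Ctps, the CTP synthase gene, read -0.072, 0.09, -0.033, -0.11 and 0.13 in controls and 0.91, 0.79, 0.85, 0.89 and 0.64 in treated animals, and rose by 0.81 ± 0.16 (limma adjusted p = 0.0038). All 5 treated animals were above every control, and it passed in 25 of 25 alternatives. Odc1, which makes putrescine, rose by 0.49 ± 0.10. In the opposite direction Tk1, thymidine kinase, fell by 0.58 ± 0.10. Tk1 read -0.64, -0.55, -0.70, -0.49 and -0.52 in treated animals and -0.11, 0.05, -0.053, -0.17 and 0.29 in controls. All 5 treated animals were below every control. The replicative helicase gene Mcm6 rose by 0.72 ± 0.19 and Mcm7 by 0.30 ± 0.07. Of 51 DNA replication genes 4 rose (7.84%, against 4.25% of all genes) and 3 fell (5.88%, against 3.76%). The rises were 2 without control replicate 5 or 8 mg/kg replicate 3, and 1 without 8 mg/kg replicate 4.

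Tubulins, the subunits of microtubules, rose in some isotypes. Tubb2a read 0.50, 0.26, -0.39, 0.34 and -0.71 in controls and 2.13, 2.28, 2.10, 2.58 and 2.05 in treated animals, 2.23 ± 0.30 higher (limma adjusted p = 0.000112). Tubb4b read 0.06, 0.073, -0.021, 0.12 and -0.23 in controls against 1.30, 1.58, 1.24, 1.93 and 1.49 in treated animals, a difference of 1.51 ± 0.12 (limma adjusted p = 4.41e-07). The treated animals of both genes stood at least a full log2 unit above every control. Tuba1c rose by 1.20 ± 0.19, Tuba4a by 0.85 ± 0.22 and Tubb6 by 0.82 ± 0.12. Tubb5 differed by 0.099 ± 0.08 and Tuba1b by 0.25 ± 0.17, and neither passed. The second probe of Tuba1b differed by 0.72. The list, which also holds other microtubule genes, had 8 rises in 33 members (24.2%, against 4.25% of all genes). Its count was 7 or 8 with any 1 animal left out, and fell to 5 in the deposited value table and 4 without slide 1.

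Of 49 mitosis genes 10 rose and 1 fell. The kinase gene Nek2 rose by 1.58 ± 0.37, the cytokinesis genes Ect2 and Kif20a by 1.32 ± 0.25 and 1.25 ± 0.27, and the spindle genes Cenpe and Tpx2 by 1.03 ± 0.30 and 0.85 ± 0.25. Ckap2, a p53-responsive spindle gene, was not well above background on any control array and was at least 1.86-fold higher in treated animals. Aspm, a spindle pole gene outside the list, was dim on the same arrays and at least 2.68-fold higher. For such genes the bound sets the treated mean against, on each control array, the lowest signal well above background or the probe's own where that is higher. The bound holds for the processing used here only. Over the alternatives Ckap2 differed by 0.141 to 1.65 and Aspm by 0.355 to 2.22. Neither passed with normexp or in the deposited value table. The securin gene Pttg1 fell by 0.38 ± 0.08, though its second probe differed by -0.00793. Kif20a read 0.29, -0.28, 0.49, -0.68 and 0.18 in controls and 0.66, 1.08, 1.52, 1.58 and 1.39 in treated animals, with replicate 1 lowest. Control replicate 4 had the lowest mitosis score, -0.40, against -0.017 to 0.31 in the other controls and 0.32 to 0.64 in treated animals. The proliferation marker Mki67 differed by 0.68 ± 0.25 (limma adjusted p = 0.106). The 10 rises became 1 with normexp and 1 in the deposited value table, 3 without slide 1, 5 without slide 3, and 6 on leaving out control replicate 4 or any of 8 mg/kg replicates 3 to 5, against 17 with slide as a block.

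DNA repair genes moved in both directions. Lig4, the ligase of end joining, rose by 0.68 ± 0.13, the bypass polymerase gene Polk by 0.80 ± 0.16 and the alkyl transferase gene Mgmt by 0.38 ± 0.08. Slx4, a scaffold of repair nucleases, rose by 0.40 ± 0.11, and the gene of its nuclease partner Slx1b fell by 0.28 ± 0.08; they passed in 12 and 10 of 25 alternatives. In all, 7 of 81 members rose (8.64%, against 4.25% of all genes) and 5 fell (6.17%, against 3.76%). The rises were 4 without 8 mg/kg replicate 4 or 5. The falls were 2 without control replicate 4 and 3 without any of control replicates 2, 3 and 5 or 8 mg/kg replicates 2 to 5.

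Of 32 genes of MAP kinase signalling and its feedback 4 rose (12.5%, against 4.25% of all genes), 1 fell and 27 did not pass, with a median of 0.07. Jun, the AP-1 transcription factor gene, is counted in the separate AP-1 and immediate early list, in which 6 of 30 rose. It read -0.024, -0.14, -0.079, 0.14 and 0.10 in controls and 2.48, 1.70, 2.33, 2.52 and 2.16 in treated animals, 2.24 ± 0.18 higher (limma adjusted p = 4.41e-07). Fosl2 rose by 0.98 ± 0.16, Jund by 0.46 ± 0.12 and Atf3 by 1.98 ± 0.19. The phosphatase genes Dusp8 and Dusp6, which switch off MAP kinases, both rose, Dusp6 by 1.49 ± 0.23, Spred1 by 0.60 ± 0.15 and Dusp16 by 0.37 ± 0.07. Dusp8 was not well above background on any control array, and was at least 3.96-fold higher in treated animals, which read 3.79, 2.71, 3.02, 2.38 and 2.97. Over the alternatives its difference ran from 0.819 to 3.28, so the bound holds for the processing used here only. Dusp6 read 0.44, 0.29, -0.57, 0.049 and -0.21 in controls and 1.62, 1.59, 1.36, 1.43 and 1.43 in treated animals, whose values were nearly level. Map2k6, a kinase upstream of p38, fell by 0.73 ± 0.17. Egr1 varied widely within both groups and differed by 0.76 ± 0.59 (limma adjusted p = 0.523), and Dusp1 by 0.49 ± 0.28 (limma adjusted p = 0.339).

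Of 66 growth factor and receptor genes 5 rose (7.58%, against 4.25% of all genes) and 2 fell (3.03%, against 3.76%), with a median of -0.0089. The 5 rises were secreted factors, and the count was 5 with any 1 animal left out. The 2 falls became 1 or 0 on leaving out any animal but control replicate 3. Fst, which encodes the activin antagonist follistatin, read 0.71, -0.45, -0.48, 0.20 and 0.024 in controls and 1.44, 1.70, 2.93, 1.5 and 1.63 in treated animals, with replicate 3 highest, and rose by 1.84 ± 0.31 (limma adjusted p = 0.00085). Pdgfa, a platelet-derived growth factor chain, read 0.045, -0.25, -0.063, 0.19 and 0.073 in controls against 0.92, 0.90, 1.38, 0.92 and 0.91 in treated animals, 1.01 ± 0.12 higher. Both genes separated the groups fully. The stress hormones Gdf15 and Fgf21 rose by 2.24 ± 0.23 and 2.00 ± 0.44. Gdf9, known from oocytes, rose by 2.29 ± 0.29; it was well above background on 4 of 5 control arrays. The receptor gene of epidermal growth factor and the gene of insulin-like growth factor did not pass: Egfr differed by 0.33 ± 0.35 and Igf1 by 0.15 ± 0.18.

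Of 40 oncofetal and liver tumour genes 7 rose (17.5%, against 4.25% of all genes) and none fell (limma; none was lower at an unadjusted p under 0.05). Dppa5a, a marker of pluripotent cells, was not well above background on any control array. It read 5.74, 2.94, 4.28, 4.57 and 3.41 in treated animals, at least 4.6-fold higher. This bound too holds for the processing used here only, as the difference ran from 1.65 to 4.63 over the alternatives. Afp, the fetal counterpart of albumin, read 0.13, 0.34, 0.00041, -0.61 and 0.13 in controls and 2.08, 1.93, 3.47, 2.79 and 2.65 in treated animals, 2.58 ± 0.28 higher. Replicate 3 was highest and replicates 1 and 2 lowest, with no overlap with controls. Other large rises were in genes dim in some or all controls. Treh, which splits the sugar trehalose, read 1.46, 1.82, -2.82, 0.64 and -1.10 in controls, where it was well above background on 2 of 5 arrays, and 4.25, 4.23, 3.60, 3.19 and 3.20 in treated animals, 3.69 ± 0.75 higher. Hsd3b4, a steroid dehydrogenase gene dim on all control arrays, was at least 3.67-fold higher, and 4 of 5 treated arrays measured it. Sftpa1, a surfactant protein gene, rose by 2.27 ± 0.47, the homeobox gene Sebox by 2.22 ± 0.52 and the granzyme gene Gzmm by 2.05 ± 0.30, each well above background on 2 of 5 control arrays. Ttc39a, a tetratricopeptide repeat gene measured on 1 of 5 control arrays, rose by 2.25 ± 0.40. Of the 845 rises 16 were not well above background on any control array and 733 were measured on all 10 arrays.

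**Figure D4:**
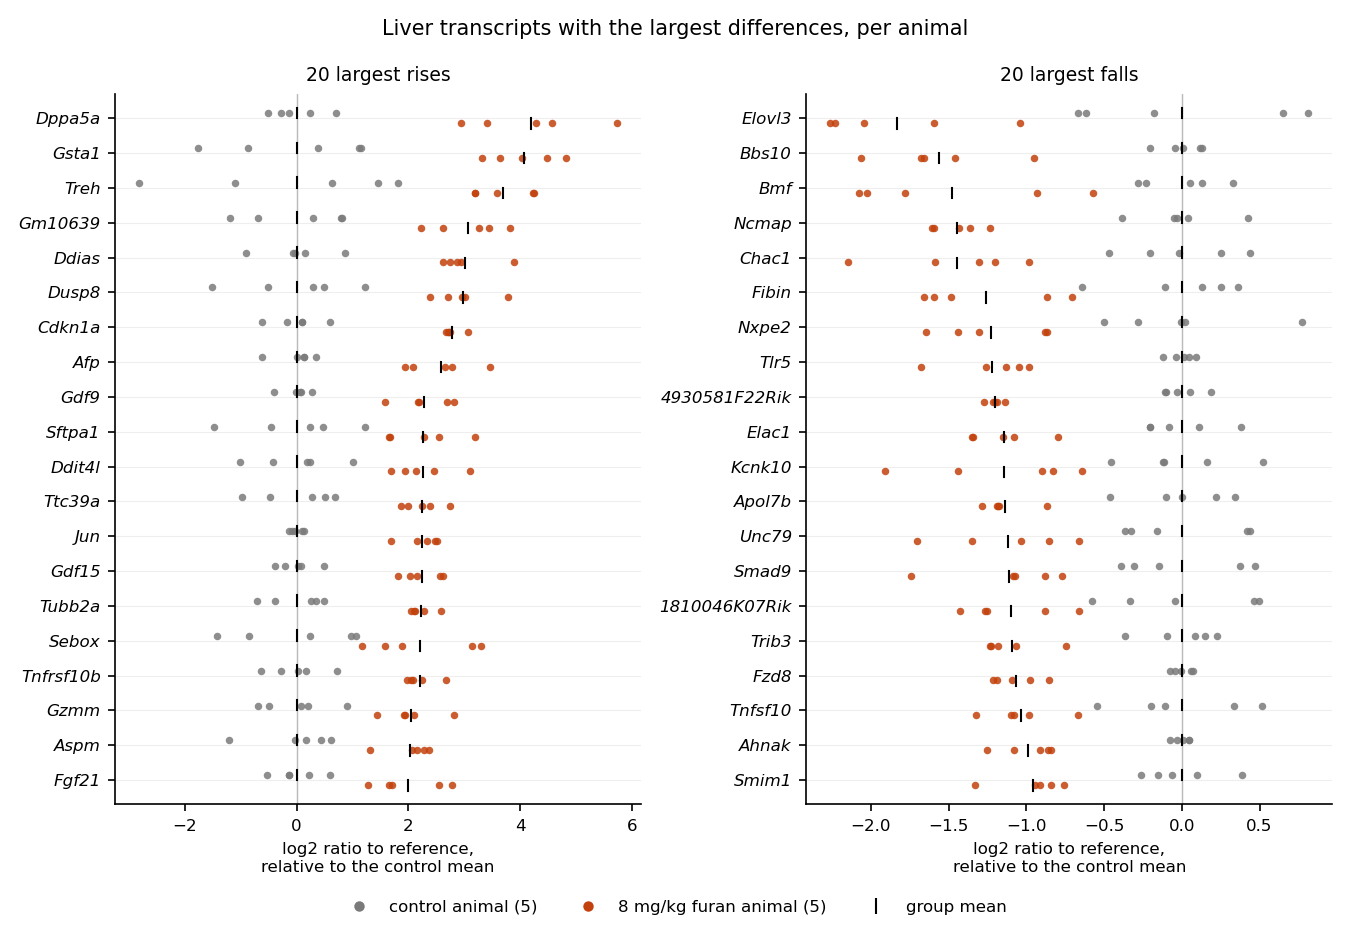
Log2 ratio relative to the control mean (x axis, a separate scale per panel) of each control animal (grey) and each 8 mg/kg animal (orange) for the 20 largest rises (left) and 20 largest falls (right) among genes whose groups did not overlap; black ticks are group means. Among those well above background on all 10 arrays, means reach 4.06 (Gsta1) and -1.56 (Bbs10); signals of others, such as Dppa5a in controls and Elovl3 in treated animals, were dim.

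Among genes with a symbol whose groups did not overlap and that were measured on all 10 arrays, the largest fall, that of Bbs10, was smaller than the largest rise, that of Gsta1. Elovl3, a fatty acid elongase gene with known sex and daily variation in liver, read 0.65, 0.81, -0.61, -0.18 and -0.67 in controls and -2.23, -2.05, -1.59, -2.26 and -1.04 in treated animals and fell by 1.84 ± 0.44; 2 of 5 treated arrays were well above background. Bbs10, a chaperonin-like gene of the Bardet-Biedl group, read 0.12, 0.13, -0.21, -0.042 and 0.0051 in controls against -2.06, -1.66, -0.95, -1.46 and -1.68 in treated animals and fell by 1.56 ± 0.16 (limma adjusted p = 3.34e-06). Its controls were tight and the weakest treated animal, replicate 3, was still well below them. Among 55 cilium and Bardet-Biedl genes 3 rose and 3 fell, shares near those of all genes (4.25% and 3.76%), and 1 rose on leaving out any of control replicates 1 and 3 and of 8 mg/kg replicates 2 and 3. In this list the chaperonin partner gene Mkks rose by 0.42 ± 0.12. Ncmap, a myelin-associated membrane protein gene (-1.45 ± 0.22), Tlr5, the flagellin receptor gene (-1.22 ± 0.20), the Wnt receptor gene Fzd8 (-1.06 ± 0.13) and the transcription factor gene Smad9 (-1.11 ± 0.20) fell, as did Ahnak, a large scaffold protein gene (-0.99 ± 0.12). Ahnak read -0.029, 0.007, 0.049, 0.047 and -0.074 in controls and -0.86, -1.26, -0.84, -0.91 and -1.08 in treated animals. This is the probe with the largest difference of its 4, which ran down to -0.188. A weaker second probe was also present for Ddx21 (0.152), named above, and for Ddo (-0.323), H2-Q2 (-0.144) and Slc11a2 (-0.324), named below. The tRNA processing gene Elac1 fell by 1.14 ± 0.16, and the uncharacterised 4930581F22Rik fell by 1.20 ± 0.13, with treated values of -1.19, -1.14, -1.20, -1.27 and -1.21. The channel gene Kcnk10 (-1.14 ± 0.25), the apolipoprotein L gene Apol7b (-1.14 ± 0.15), Fibin (-1.26 ± 0.22) and Smim1 (-0.96 ± 0.13) fell too. The falls of Nxpe2 (-1.23 ± 0.36), Unc79 (-1.12 ± 0.30) and 1810046K07Rik (-1.10 ± 0.31) were less stable and passed in 11, 15 and 12 of 25 alternatives.

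Cell death and stress genes fell as well as rose. Chac1, a glutathione-degrading enzyme gene, and Trib3, a pseudokinase gene, are targets of Atf4. Chac1 read 0.44, -0.20, -0.02, -0.47 and 0.25 in controls and -1.59, -1.30, -0.98, -2.15 and -1.20 in treated animals and fell by 1.44 ± 0.29. Trib3 fell by 1.09 ± 0.24, whereas Atf4 rose by 0.60 ± 0.10 and the Atf4 target Sesn2, which p53 also induces, by 0.84 ± 0.16. Asns, another target, differed by 0.55 ± 0.27 (limma adjusted p = 0.254), and the chaperone gene Hspa5 by 0.15 ± 0.20 (limma adjusted p = 0.761). Of the death receptor pair, the receptor gene Tnfrsf10b rose by 2.21 ± 0.20 and the gene of its ligand, Tnfsf10, fell by 1.03 ± 0.19. Tnfsf10 read -0.11, -0.20, -0.55, 0.52 and 0.34 in controls and -1.10, -0.98, -0.67, -1.32 and -1.08 in treated animals, so only a narrow gap parted the groups. The BH3-only genes Bmf (-1.48 ± 0.27) and Bik (-0.93 ± 0.23) and the caspase genes Casp6 (-0.64 ± 0.17) and Casp9 (-0.40 ± 0.09) fell. Bax rose by 0.84 ± 0.11. Of 51 cell death mediators 6 rose (11.8%, against 4.25% of all genes) and 7 fell (13.7%, against 3.76%). The rises numbered 4 to 6 with any 1 animal left out. The 7 falls became 4 without 8 mg/kg replicate 3 or 4 and 4 with normexp.

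Antigen presentation genes fell by small amounts. MHC class I molecules carry peptides, cut by the immunoproteasome, to the cell surface. Of 33 members 8 fell and none rose (limma; none was higher and 12 were lower at an unadjusted p under 0.05). H2-K1, a class I heavy chain gene, read -0.14, 0.077, -0.11, 0.13 and 0.028 in controls and -0.34, -0.43, -0.38, -0.48 and -0.41 in treated animals and fell by 0.41 ± 0.07 (limma adjusted p = 0.00125). B2m, the class I light chain gene, read 0.032, 0.14, -0.17, 0.081 and -0.082 in controls against -0.27, -0.34, -0.29, -0.49 and -0.48 in treated animals and fell by 0.38 ± 0.09. In both the groups were separate, as they were for 4 of the other 6 falls (all treated below all controls: 4.32% of all genes); Psmb10 and Tapbp overlapped slightly. The heavy chain genes H2-T23 (-0.55 ± 0.15) and H2-Q2 (-0.51 ± 0.14) fell, though class I probes can share transcripts of this family. The catalytic immunoproteasome subunits Psmb8 (-0.39 ± 0.10), Psmb9 (-0.37 ± 0.09) and Psmb10 (-0.29 ± 0.08) and the loading factor Tapbp (-0.36 ± 0.10) made up the rest. Of the 50 proteasome genes 1 rose and none fell (limma; 4 were lower at an unadjusted p under 0.05). The regulators Nlrc5 and Irf1 differed by -0.55 ± 0.17 and -0.23 ± 0.10, and neither passed. The promoters of 2 of the 8 genes that fell held the interferon response element searched (either strand), against 3.84% of the genes tested. Their windows are shown with the element in capitals: B2m (plus strand, chr2:122147538-122147567) and H2-T23 (minus strand, chr17:36032806-36032835).
B2m: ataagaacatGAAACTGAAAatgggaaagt
H2-T23: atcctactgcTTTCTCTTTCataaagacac
The falls depended on scaling and animals: 1 member fell with normexp, 4 with median centring and 2 in the deposited value table, 1 without slide 1, 4 on leaving out control replicate 3, control replicate 4 or the 8 mg/kg replicate 3, and 5 on leaving out control replicate 2. The controls with the highest list scores, replicates 2 and 4 (0.082 and 0.19), also scored highest for Kupffer cell and macrophage markers (0.18 and 0.52; the 3 other controls -0.35 to -0.049, treated animals -0.25 to 0.35). None of 14 such markers passed, and their part in the falls was not tested.

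Genes of autophagy and the lysosome fell in 9 and rose in 3 of 69 tested. Mcoln1, the lysosomal calcium channel gene, read -0.15, -0.097, 0.099, 0.059 and 0.093 in controls and -0.50, -0.51, -0.51, -0.44 and -0.48 in treated animals and fell by 0.49 ± 0.07 (limma adjusted p = 0.000112). The treated animals were almost equal. Genes for the autophagosome proteins Gabarapl1 (-0.54 ± 0.16), Map1lc3b (-0.39 ± 0.09) and Map1lc3a (-0.37 ± 0.10) fell, as did the initiation factor Atg14 (-0.43 ± 0.09) and the protease gene Ctsl (-0.38 ± 0.11). Tfe3, a transcription factor of lysosomal genes, rose: -0.00028, -0.11, -0.068, 0.098 and 0.079 in controls and 0.52, 0.68, 0.51, 0.50 and 0.44 in treated animals, a difference of 0.53 ± 0.08 (limma adjusted p = 0.000514). Its relative Tfeb differed by -0.18 ± 0.15 and the cargo receptor gene Sqstm1 by 0.057 ± 0.11, and neither passed. The 9 falls became 2 with normexp, 4 with median centring and 4 in the deposited value table, and 5 without any 1 of control replicates 2 to 5 or 8 mg/kg replicates 2 to 4; Mcoln1 passed in 24 and Tfe3 in 25 of 25 alternatives.

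Enzymes of amino acid breakdown fell in 8 of 65 tested, with no rise (limma; none was higher at an unadjusted p under 0.05 and 16 were lower). Prodh, the first enzyme of proline oxidation, read 0.089, 0.062, -0.15, -0.13 and 0.13 in controls and -0.54, -0.66, -0.73, -0.92 and -0.82 in treated animals and fell by 0.73 ± 0.11 (limma adjusted p = 0.000424). Auh (-0.49 ± 0.07) and Ivd (-0.40 ± 0.08), of leucine breakdown, fell, as did Pccb (-0.68 ± 0.18) and Mmut (-0.31 ± 0.06), which pass propionyl-CoA on to succinyl-CoA. Ddo, D-aspartate oxidase, fell furthest (-1.17 ± 0.31), but replicate 1 (-0.18) lay within the controls, and Pccb and Oat, ornithine aminotransferase (-0.46 ± 0.13), overlapped too. The list score followed slide: both arrays of slide 3 were high (control replicate 2 at 0.37, 8 mg/kg replicate 3 at 0.23, the other 8 at -0.26 to -0.040), and within slides the treated minus control score was -0.15 to -0.0055. The 8 falls were 13 with slide as a block, 4 without slide 3, 2 with normexp, 3 in the deposited value table, 4 on leaving out 8 mg/kg replicate 3, and 5 on leaving out any of control replicates 1, 2 and 5 or the 8 mg/kg replicate 2. The median over the list, -0.061, ran from -0.176 to 0.0229 over the alternatives.

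**Figure D5:**
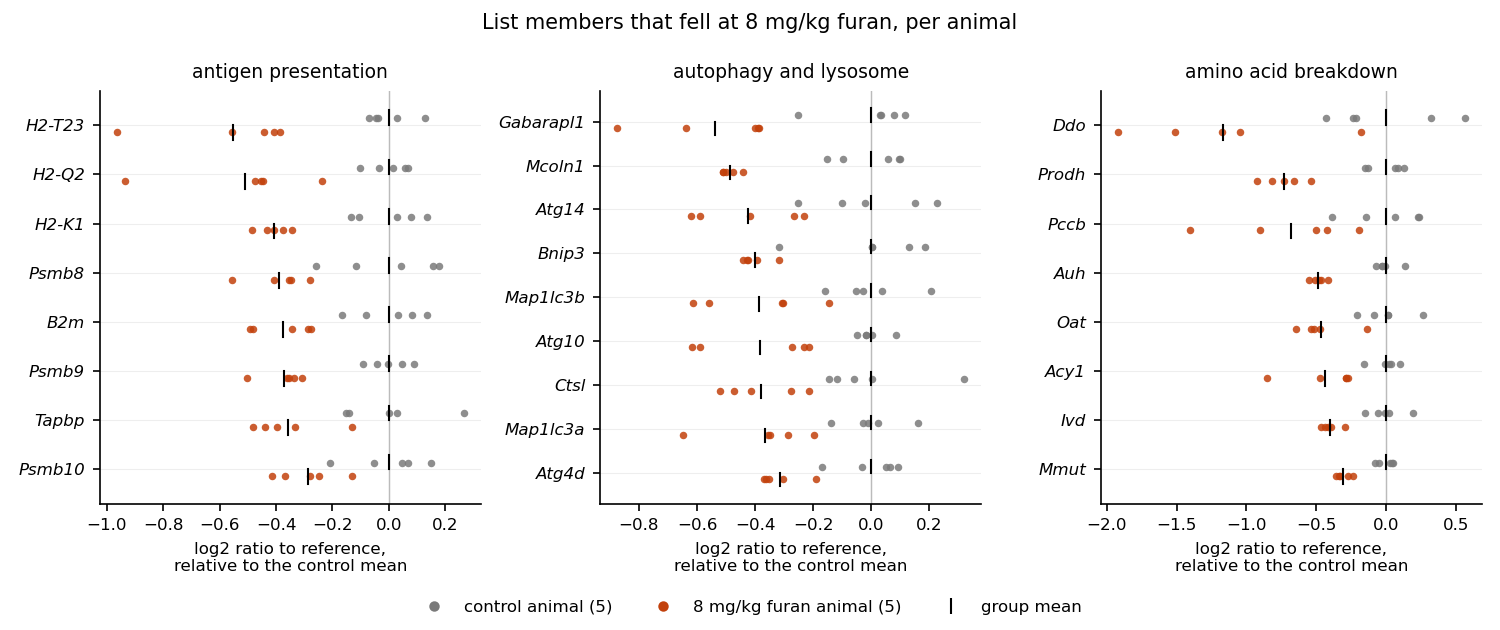
Log2 ratio relative to the control mean (x axis, a separate scale per panel) of each control animal (grey) and each 8 mg/kg animal (orange) for the members that fell in the antigen presentation, autophagy and lysosome, and amino acid breakdown lists; black ticks are group means. Mean falls run from -1.17 (Ddo) to -0.29 (Psmb10), and treated and control animals overlap for Ddo, Pccb and Oat in the right panel.

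Lipid, iron and mitochondrial genes changed in single members. Of 45 genes of fatty acid synthesis and storage 4 rose and 4 fell (8.89% each way, against 4.25% and 3.76% of all genes). The rises were 2 without 8 mg/kg replicate 3 or 4, and the falls 2 on leaving out 8 mg/kg replicate 4 or either of control replicates 1 and 5. Mogat2, which makes diacylglycerol, read 0.15, -0.064, -0.063, -0.30 and 0.28 in controls and 1.26, 1.06, 1.70, 1.13 and 1.05 in treated animals, 1.24 ± 0.20 higher (limma adjusted p = 0.000659), Abhd5, the activator of triglyceride lipase, rose by 0.83 ± 0.11 and the lipid droplet gene Cidec by 1.33 ± 0.36. Acacb, which makes malonyl-CoA, fell by 0.72 ± 0.19, and the droplet coat gene Plin2 differed by -0.19 ± 0.22 (limma adjusted p = 0.709). Tfrc, the transferrin receptor gene, read -0.046, 0.20, -0.25, -0.16 and 0.25 in controls against 1.19, 1.36, 0.93, 1.76 and 0.81 in treated animals, 1.21 ± 0.21 higher, Hmox1 rose by 1.09 ± 0.25 and the iron transporter gene Slc11a2 fell by 0.68 ± 0.18. Hmox1 was uneven among the treated animals, at 2.13, 0.49, 1.17, 0.72 and 0.94. The metallothionein gene Mt1 differed by -0.71 ± 0.42 and did not pass. Tomm40l, a paralogue of the mitochondrial import pore, read 0.027, 0.017, -0.17, 0.11 and 0.0072 in controls and 0.62, 1.23, 1.51, 0.97 and 0.87 in treated animals and rose by 1.04 ± 0.13 (limma adjusted p = 6.66e-05); the import receptor gene Tomm20 rose by 0.43 ± 0.08. Of 76 oxidative phosphorylation genes 3 fell (3.95%, against 3.76% of all genes), none without control replicate 5 or 8 mg/kg replicate 5 and 1 without 8 mg/kg replicate 4, and none rose (limma; 1 was higher and 19 were lower at an unadjusted p under 0.05), with a median of -0.080 that was 0.0705 with normexp.

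Solute carriers had 1 rise and 2 falls in 77 (1.30% and 2.60%), under the 4.25% and 3.76% of all genes. Conjugation and export genes had 1 rise and 2 falls in 59 (1.7% and 3.39%). The inflammatory list had a share of rises near that of all genes (4.08%) and a larger share of falls, given below. Slc10a2, the ileal bile acid carrier gene, rose by 1.82 ± 0.42 as 1 of 77 solute carriers, of which 2 rose on leaving out control replicate 5 or either of 8 mg/kg replicates 1 and 4. Of 59 conjugation and export genes 1 rose, Abcc12, an ABC transporter gene, against none without control replicate 5 and 3 with normexp or in the deposited value table. Abcc12 was well above background on 1 of 5 control and 4 of 5 treated arrays, and its difference ran from 0.516 to 2.75 over the alternatives. Sult1c2, a sulfotransferase gene, fell by 0.96 ± 0.17. The chemokine genes Cxcl10 and Ccl4 rose by 1.60 ± 0.15 and 1.76 ± 0.38 in a list of 49 that also held 4 falls (8.16%, against 3.76% of all genes), or 2 falls on leaving out control replicate 5 or either of 8 mg/kg replicates 2 and 4. Ccl4 did not pass with normexp (0.19) or in the deposited value table (0.227). Cxcl10 read -0.22, -0.033, 0.032, 0.36 and -0.14 in controls and 1.24, 1.71, 1.89, 1.45 and 1.74 in treated animals, with no overlap. Among 18 sinusoidal endothelial markers 3 fell, Clec14a (-0.48 ± 0.15), Eng (-0.47 ± 0.14) and Egfl7 (-0.23 ± 0.07); they passed in 6, 6 and 8 of 25 alternatives, at most 1 member of the list fell with any 1 animal left out, and the list score (-0.41 to 0.29 in treated animals, -0.23 to 0.31 in controls) overlapped. Stat5b, which carries growth hormone signals, fell by 0.55 ± 0.10, and the clock gene Clock rose by 0.76 ± 0.16.

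The lower doses share the controls with 8 mg/kg, so their differences are given side by side only. At 1, 2, 4 and 8 mg/kg the median of the ribosome biogenesis list was -0.027, 0.016, 0.076 and 0.17, of the heat shock list 0.054, 0.18, 0.14 and 0.37, of the NRF2 list -0.042, -0.025, -0.0062 and 0.26, and of the antigen presentation list -0.044, -0.045, -0.16 and -0.15. By gene, Nop58 differed by 0.014, 0.20, 0.29 and 0.80, Tubb4b by 0.41, 0.44, 0.84 and 1.51, Gsta1 by 0.63, -0.54, 1.10 and 4.06, and Dusp6 by 0.015, 0.38, 0.25 and 1.49. Among the falls, Bbs10 differed by -0.34, -0.60, -0.67 and -1.56, and Ahnak by -0.28, -0.57, -0.98 and -0.99. Bmf differed by 0.34, -0.094, -0.0025 and -1.48.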

How the data were processed

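The deposited scanner files hold, per the file headers, Agilent Feature Extraction 10.7.3.1 intensity values for Cy5 and Cy3, background-subtracted and dye-normalised by the authors' scanner software. A deposited value file of the whole series holds, per the labels and its own values, the authors' normalised ratio of Cy5 to Cy3, with column medians of 0.974 to 0.987; log2 of it correlated at 0.881 to 0.915 with the ratios used here, and its exact normalisation is not given in the sources used here.

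From the intensities, log2 ratios were computed here and normalised by loess within each array (span 0.3, 4 iterations; control spots and outlier flags left out). All samples carried Cy5, with no dye swap, so a dye effect is shared by both groups. Spots of a probe were averaged. Of 55681 probes, 25576 were kept, those called above background by the scanner in 4 or more arrays of any group. A gene was its brightest probe, named through RefSeq symbols where the file's accession matched (26413 probes, 20018 symbols). Genes were tested with limma 3.58.1 (R 4.3.3; the data.table package, version 1.17.8) on all 23 arrays, group as the only term, with Benjamini-Hochberg adjustment over 19899 genes. Scripts were tested on simulated data.

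Named genes are the 20 largest rises and 20 largest falls with a symbol, no overlap between groups and a probe measured on every array of 1 group; up to 8 members in each direction that passed in each list; up to 4 known members that did not pass; and the hepatocyte markers; some of these are not reported here. The members, lists and comparisons were chosen with earlier results of these data known. Replicate numbers do not pair the animals: deviations of same-numbered arrays correlated at -0.143 to 0.264. Alternatives covered background correction, scaling, filters, probe averaging, slide and replicate blocks, fewer arrays and each of the 10 animals left out.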

Additional observations from a re-analysis of the deposited data

Results flagged for a closer look

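Values are log2 ratios relative to the control mean. An animal is listed where its gap to the nearest other animal of its group of 5 was over 0.71 of the group's range. Chance gives that in about 1 of 20 groups. Of 402 groups of values tested, 27 had such an animal, 6 of them control and 21 treated groups.

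8 mg/kg replicate 5 stood apart from the other animals of its group in Apol7b (-0.87). Its list score for pancreas acinar cells stood apart at 2.38. 8 mg/kg replicate 3 stood apart from the other animals of its group in Cbr1 (1.09), Cyp2e1 (0.45), Ddias (3.88), Etf1 (1.03), Fst (2.93), Gars (0.73), Gstp2 (1.02), Hnf4a (0.86), Igf1 (0.75), Pdgfa (1.38), Sqstm1 (-0.33) and Trp53 (-0.19). Its list score for amino acid breakdown stood apart at 0.23. Its list score for Kupffer cells and macrophages stood apart at 0.35. 8 mg/kg replicate 1 stood apart from the other animals of its group in Cdkn1a (3.06), Polr1e (0.65) and Psmb9 (-0.50). Control replicate 2 stood apart from the other animals of its group in Cyp2e1 (0.78). Its list score for amino acid breakdown stood apart at 0.37. Control replicate 3 stood apart from the other animals of its group in Ddx21 (-0.27) and Tuba1c (-0.16). 8 mg/kg replicate 2 stood apart from the other animals of its group in Dnajb1 (0.15). Control replicate 1 stood apart from the other animals of its group in Gabarapl1 (-0.25). Control replicate 5 stood apart from the other animals of its group in Gars (-0.22). 8 mg/kg replicate 4 stood apart in the list score for mitosis, at 0.64. The 8 mg/kg replicate 3 array is one of the pair on slide 3, whose hepatocyte marker scores were highest, and the part of slide in these values was not tested.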

How the results depend on the processing

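Aquantile scaling changes no ratio and gave the same calls. Against 1593 genes past the test in the report, normexp gave 1009 (873 of the 1593 among them), the values deposited by the authors 931 (862), no filter on dim probes 930 (905), slide as a random block 2454 (all 1593), the 10 arrays alone 1039 (952), these with slide as a block 276 (249) and leaving out slide 1 617 (600); the last 2 settings were chosen after seeing the data. Against 529 changes of at least 1.5-fold, the counts were 275 (normexp), 262 (value table), 230 (the 10 arrays with slide as a block) and 350 (without slide 1). With a replicate block, 1521 genes passed, 522 of them at least 1.5-fold; the shared numbers do not pair the animals. With 1 animal left out, 1155 to 1338 genes passed, 447 to 520 of them at least 1.5-fold.

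The 272 genes past the test that the naming rule covers or the text names kept their direction in 6796 of 6797 alternatives and passed in 5326, and 59 passed in all. The exception in direction is Gspt1, -0.105 with the mean over its probes. Values near 0 that did not pass also changed sign. Without the arrays rich in pancreatic transcripts Alb was -0.014 and Cps1 was -0.00844. With slide as a fixed block Fga was 0.00924 and Tat was -0.00978. With only the 10 arrays with slide as a fixed block Fga was 0.00697. With the mean over probes Egfr was -0.0667. With normexp Npm1 was 0.056 and Trp53 was -0.054. With the deposited value table Trp53 was -0.0244. With 1 animal left out Alb ran from -0.0982 to 0.158, Apoa1 ran from -0.105 to 0.297, Cps1 ran from -0.185 to 0.288, Fga ran from -0.414 to 0.00905, Hnf4a ran from -0.0442 to 0.264, Serpina1a ran from -0.108 to 0.188, Tat ran from -0.197 to 0.232, Ttr ran from -0.00675 to 0.158, Fbl ran from -0.0108 to 0.116 and Sqstm1 ran from -0.0122 to 0.153. The causes were not tested.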

Other observations

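Of the 1593 genes past the test, 171 rises and 181 falls were probes with no matched symbol, and they were not named. Of the 1241 with a symbol, 282 were on a pathway list, as were 2315 of the 12927 genes with a symbol that were tested. Most called genes with a symbol thus lay outside the lists described, as did most of those tested. Over the proximal promoters the ETS motif CCGGAAGT was found in 13.6% of the 550 genes with a promoter entry that rose, 4.71% of the 446 that fell and 8.38% of the genes tested, and the E-box CACGTG in 13.5%, 12.3% and 11.3%. The interferon response element was in 3.64% of genes that rose and 3.59% that fell, against 3.84%. These shares are descriptions, with no test.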
